A study of Mus musculus with 4 samples.

Results

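The cytosolic ribosomal protein genes encode the proteins of the 80S ribosome, the particle that translates nuclear mRNAs. They were taken as the protein-coding genes of the mm10 RefSeq annotation whose symbol is Rpl or Rps with a number and an optional x or a, with Rplp0, Rplp1, Rplp2 and Rpsa added. The rule found 76 genes among 21900 protein-coding genes, 46 of the large subunit and 30 of the small subunit. Accessible chromatin was mapped by ATAC-seq, in which a transposase cuts open DNA, in mouse bone marrow-derived macrophages. The knockout (KO) group came from Ezh2fl/fl;LysM-Cre+/- mice and the wild-type (WT) group from littermate controls, whose alleles the labels do not give. LysM-Cre acts in myeloid cells, and Ezh2 is the methyltransferase subunit of Polycomb repressive complex 2. All 4 libraries, 2 per genotype, came from cells given medium conditioned by the mouse hepatoma line Hepa1-6 for 24 hours, so the groups differ in genotype and share that exposure. The labels do not say whether the libraries of a group came from separate mice, so differences are set here against the spread between libraries, which may be technical.

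Each ribosome carries nearly all of these proteins in a single copy, and their genes are transcribed at high rates in nearly all dividing cells. Their promoters are typically short, lack a clear TATA box, and start transcription within a run of C and T. That run becomes the 5′ terminal oligopyrimidine (TOP) tract of the mRNA, through which mTOR and Larp1 control its translation. Many of these genes also hold small nucleolar RNAs (snoRNAs) in their introns, and they have left large numbers of processed pseudogenes in mammalian genomes.

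The promoter stretches of 9 genes are shown. These genes had the narrowest or widest called accessible regions over their starts, or no called region within 1 kb of an annotated end. Each stretch runs from 100 bases before the RefSeq transcription start to 20 bases from it onward, 120 bases in all. It is on the coding strand of mm10 and taken from RefSeq. Capitals mark matches, on either strand, to 8 motifs. These were the ETS factor core, spelled CCGGAAG, the GC box that Sp1 binds, spelled GGGCGG, and the cAMP response element, spelled TGACGTCA. A match to the YY1 factor was searched for as GCCATNTT and, in a stricter form read on the opposite strand, as AAGATGGC. The TATA box was spelled TATAAA, the E-box of Myc and its relatives was spelled CACGTG, and the short form of a palindromic core promoter element was spelled TCTCGCGA. The 4 narrow examples were Rpl13 (chr8:123102250-123102369, + strand), Rps9 (chr7:3703941-3704060, + strand), Rps28 (chr17:33824543-33824662, − strand) and Rpl28 (chr7:4792865-4792984, + strand). The 4 wide examples were Rpl10 (chrX:74270716-74270835, + strand), Rpl38 (chr11:114668480-114668599, + strand), Rpl34 (chr3:130730379-130730498, − strand) and Rpl11 (chr4:136053374-136053493, − strand). Rps2 (chr17:24719963-24720082, + strand) had no called region within 1 kb of an annotated gene end.
Rpl13: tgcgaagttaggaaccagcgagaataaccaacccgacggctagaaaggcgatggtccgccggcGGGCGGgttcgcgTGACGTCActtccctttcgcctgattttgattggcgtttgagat
Rps9: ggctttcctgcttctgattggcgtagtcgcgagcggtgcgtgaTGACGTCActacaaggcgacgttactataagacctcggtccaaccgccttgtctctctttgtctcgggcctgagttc
Rps28: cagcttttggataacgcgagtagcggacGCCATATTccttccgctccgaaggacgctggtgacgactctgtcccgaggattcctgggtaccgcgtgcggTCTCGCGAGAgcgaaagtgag
Rpl28: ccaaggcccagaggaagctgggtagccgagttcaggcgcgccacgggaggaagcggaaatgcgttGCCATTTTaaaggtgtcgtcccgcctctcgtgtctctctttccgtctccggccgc
Rpl10: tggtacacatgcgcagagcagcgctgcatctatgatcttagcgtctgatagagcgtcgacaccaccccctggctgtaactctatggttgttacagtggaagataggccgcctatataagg
Rpl38: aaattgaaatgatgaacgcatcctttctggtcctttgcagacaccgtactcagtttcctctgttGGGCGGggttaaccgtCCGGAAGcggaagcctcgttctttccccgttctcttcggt
Rpl34: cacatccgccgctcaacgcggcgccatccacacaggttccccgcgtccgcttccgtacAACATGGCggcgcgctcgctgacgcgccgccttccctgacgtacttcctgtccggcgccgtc
Rpl11: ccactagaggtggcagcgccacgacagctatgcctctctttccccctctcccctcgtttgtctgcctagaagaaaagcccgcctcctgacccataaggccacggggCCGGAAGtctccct
Rps2: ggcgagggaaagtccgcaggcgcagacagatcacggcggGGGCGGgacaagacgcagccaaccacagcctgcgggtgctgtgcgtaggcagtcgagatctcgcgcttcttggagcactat
The stretch of Rpl10 held no match to any of the motifs. Those of Rpl13 and Rps9 held the cAMP response element.

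Over the 66 promoter windows that RefSeq gave for 56 of the genes, each from 250 bases before the start to 50 after it and some overlapping within a gene, some motifs were more frequent than over all 21263 windows. TCTCGCGA, the short form of the palindromic element, stood in 11 windows (16.7%). It stood in 1.41% of all windows and 2.55% of the 10384 windows whose start lay in a region called in all 4 libraries. CCGGAAG stood in 24 windows (36.4%), against 11.6% of all windows and 20.6% of the open ones. GCCATNTT stood in 15 windows (22.7%), against 6.37% and 9.19%. The stricter form AAGATGGC, whose matches are all matches to GCCATNTT too, stood in 7 windows (10.6%), against 3.05% and 4.92%. The GC box did not follow this order, with 40 windows (60.6%) against 46.2% of all and 67.9% of open windows. TATAAA stood in 6 windows (9.09%), against 12.6% and 6.01%. TGACGTCA stood in 5 windows (7.58%), against 2.23% and 3.65%, and CACGTG in 8 windows (12.1%), against 7.84% and 10.7%. These shares count windows, and several windows can belong to 1 gene. By gene, matches stood in 10 genes for TCTCGCGA, 23 for CCGGAAG, 11 for GCCATNTT and 5 for AAGATGGC. The GC box stood in 34 genes and CACGTG in 6. The median GC content of the windows was 58.2%, between 56.3% for all windows and 61.7% for the open ones.

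The unbroken run of C or T that included the start base was at least 8 bases long in 17 of the 66 windows (25.8%), against 3.51% of all windows and 3.60% of the open ones. It was at least 5 bases long in 20 windows (30.3%), against 8.59% and 8.83%. In the stretches above the run was 11 bases in Rpl28, 10 in Rpl38 and 9 in Rps9, and 4 in Rpl13, Rps28 and Rps2. In Rpl10, Rpl34 and Rpl11 the annotated start base was a purine, so the run was 0. A match describes the letters at the annotated start and does not show where transcription began in these cells.

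The data were broad peak lists, 1 per library, with 69210 and 72887 peaks in WT and 67055 and 71111 in KO, covering 26.7 to 29.9 Mb. They give no read counts, so the sequencing depth is unknown. Peaks of the 4 lists were merged into 91858 regions, and a gene-end region was a region within 1 kb of either annotated end of a gene. At Ezh2 the gene-end region (chromosome 6, 47594084 to 47595538) covered 1378 and 1408 bp in WT and 1350 and 1351 bp in KO, and a call there does not test the deletion. Of the marker genes, 6 of 6 for macrophages had a gene-end region called in all 4 libraries, against 1 of 3 for B cells, 0 of 3 for T cells, and 1 of 3 each for neutrophils, hepatocytes and fibroblasts. Those were Cd79a, S100a8, Apoa1 and Col1a1, while Alb was called in 1 library of each genotype, WT replicate 1 and KO replicate 1. The share over all protein-coding genes was 54.6%. By the percentile of the deposited fold within each list, averaged over libraries, the macrophage markers had a median of 45.2. The values were 10.5 at Cd79a, 95.0 at S100a8, 52.2 at Apoa1 and 77.5 at Col1a1. The macrophage markers as a set thus did not rank highest. The part of other cells in the results below was not tested.

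Nearly all ribosomal protein genes were called in every library of both genotypes. A gene-end region called in all 4 libraries was found for 74 of 76 genes (97.4%), against 54.6% of all protein-coding genes. The count was 45 of 46 for the large subunit and 29 of 30 for the small subunit, and each library on its own called 74 genes. Of the 74, 56 had 1 gene-end region and 18 had 2. Counted from the annotated starts, 56 of the 56 genes with a RefSeq start had a start inside a region called in all 4 libraries, against 51.6% of all genes with a start.

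Rps2 and Rpl17 were the genes without a gene-end region, and both had a called region inside the gene. Rps2 encodes a small-subunit protein at the mRNA entry channel and lies on chromosome 17, 24718121 to 24721927. Its region, 24719670 to 24720213, lay 1549 bp from the nearest annotated end and held the RefSeq start at 24720063. WT libraries covered 487 and 503 bp of it and KO libraries 479 and 525 bp, so the ranges overlapped. Rpl17, a large-subunit protein at the exit of the peptide tunnel, lies on chromosome 18, 74998978 to 75003381. Its region, 75000199 to 75001024, lay 1221 bp from the nearest end and covered 578 and 826 bp in WT and 683 and 661 bp in KO. No start was given for Rpl17 in the promoter table.

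**Figure D1:**
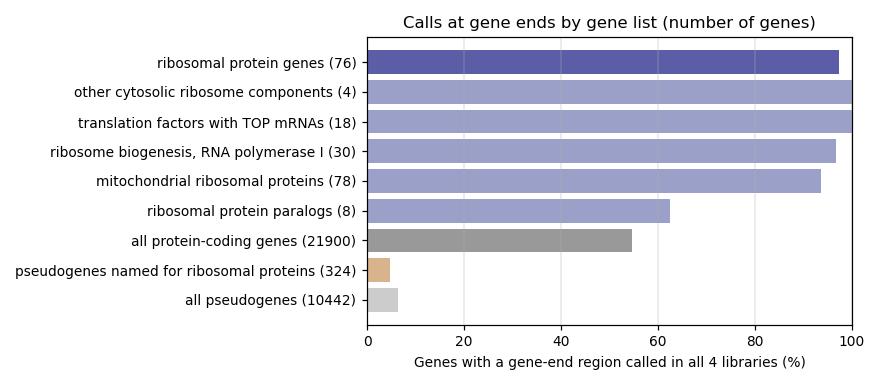
Share of genes, in percent, with a gene-end region called in all 4 libraries, by gene list with the number of genes in brackets. Ribosomal protein genes reached 97.4%, all protein-coding genes 54.6%, and pseudogenes named for ribosomal proteins 4.63%.

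Genes that work with the cytosolic ribosome were called at like shares. All 4 further ribosome components had a region called in all 4 libraries, among them Rps3a1, the scaffold protein Rack1 and Fau, a ubiquitin-like fusion. The 18 translation factors with TOP mRNAs were all called, among them the elongation factors Eef1a1 and Eef2 and the poly(A)-binding protein Pabpc1. Of 30 genes for ribosome biogenesis and RNA polymerase I, 29 were called (96.7%). The exception was Ubtf, a factor of ribosomal RNA gene transcription, whose RefSeq start nevertheless lay in a region called in all 4. Among 11 regulators 10 were called (90.9%), and the exception, Larp1, also had its start in such a region. The mitochondrial ribosomal proteins, which serve a separate ribosome, had 73 of 78 genes called (93.6%), and all 69 of those with a RefSeq start had it in a region called in all 4. The 5 without such a gene-end region were Mrpl18, Mrpl24, Mrpl4, Mrps2 and Mrps23.

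Copies of the ribosomal protein genes had shares near the background of their own kind. Of 8 annotated protein-coding paralogs, 5 (62.5%) had a gene-end region that every library called: Rpl3l, Rpl7l1, Rpl22l1, Rpl36al and Rps27l. The background share for protein-coding genes was 54.6%, and a count over 8 genes does not set the paralogs apart from it. Whether the regions of these paralogs lie at ends shared with other genes was not tested. No library called a region at an end of Rpl10l, Rpl39l or Rps27rt. Rpl10l is a retrogene known for its expression in testis. Of 324 pseudogenes named for ribosomal proteins, 15 had a region within 1 kb of an end called in all 4 (4.63%), against 6.30% of all 10442 pseudogenes, and 1 of the 15 shared its region with a coding gene's end. The treatment of reads that match several copies is not stated in the labels, so calls at near-identical copies are uncertain.

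The 91 gene-end regions of the ribosomal protein genes were called almost uniformly. All 4 libraries called 86 of them (94.5%), while the share over the 14419 gene-end regions of all genes was 82.1%. Of the remaining 5, 1 was called in 3 libraries and 4 in 1. None was called in both KO libraries and neither WT library, a pattern shown by 0.735% of all gene-end regions. None was called in both WT libraries and neither KO library, a pattern shown by 0.804%. With 91 regions, a share as small as these backgrounds corresponds to fewer than 1 region, so the count of 0 does not separate these genes from the rest.

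The 5 regions without a call in all 4 libraries were further regions of genes whose main region was called throughout. At Rpl23 a region of 317 bp covered 158 and 161 bp in WT, 0 bp in KO replicate 1 and 317 bp in KO replicate 2. The other 4 were called in 1 library each, among them 128 bp at Rps29 in WT replicate 1, 109 bp at Rpl13 in WT replicate 2 and 105 bp at Rps27a in KO replicate 1.

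For each gene the main region was the gene-end region nearest its RefSeq start, or the widest where no start was given. The main regions of the 74 genes were 307 to 1776 bp wide, with a median of 834 bp and quartiles of 653.75 and 952.75 bp. The 10374 main regions of other protein-coding genes, chosen by the same rule and called in all 4 libraries, had a median of 865 bp. Over all gene-end regions called in all 4 libraries the median was 819 bp, and over all regions so called it was 513 bp. The medians of the large and small subunit genes were 840 and 759 bp. Of the main regions, 19 were shared with the end of another protein-coding gene, as at Rpl7a with Med22, Rpl9 with Lias, Rps18 with Vps52 and Rpl4 with Zwilch. A region at such a shared end cannot be assigned to either gene. The genes were short, with a median length of 3169.5 bp against 17146 bp for all protein-coding genes, and 29 of them held 58 annotated snoRNAs. The part of gene length in the share called was not tested.

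The widest main regions were those of Rpl7, Rpl10, Rpl38, Rps29 and Rpl30. At Rpl7 (chromosome 1, 16101295 to 16104433) the region of 1776 bp was shared with Rdh10, and covered 1716 and 1770 bp in WT and 1728 and 1761 bp in KO. Rpl10, which joins the large subunit late in its assembly, had a region of 1595 bp (chromosome X, 74269842 to 74271436). It covered 1556 and 1005 bp in WT and 1559 and 1566 bp in KO, so WT replicate 2 stood apart from the other 3 libraries. Rpl38, needed for the translation of certain Hox mRNAs in mouse embryos, had a region of 1385 bp (chromosome 11, 114667991 to 114669375). Its values were 1385 and 1335 bp in WT and 1310 and 1274 bp in KO. Rps29 covered 1179 and 1295 bp in WT and 1026 and 1310 bp in KO, while Rpl30 covered 1304 and 1175 bp in WT and 1071 and 942 bp in KO. The WT values lay above the KO values at Rpl38 and Rpl30 and overlapped them at Rps29.

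Among the narrowest were those of Rpl18, Rpl22, Rpl13 and Rps9. The main regions of Rpl18, 307 bp, and Rpl22, 319 bp, did not lie at the start but 1667 and 7321 bp from it. The main region of Rpl18 covered 271 and 219 bp in WT and 269 and 286 bp in KO. That of Rpl22 covered 262 and 272 bp in WT and 244 and 319 bp in KO. Rpl18 had a second gene-end region, 478 bp wide and called in all 4 libraries, which lay farther from the start. It overlapped an annotated end and covered 378 and 413 bp in WT and 475 and 324 bp in KO. Rpl13 (chromosome 8, 123102211 to 123102636) covered 335 and 385 bp in WT and 396 and 406 bp in KO, with both KO values above both WT values. At Rps9 (chromosome 7, 3703812 to 3704267) the values were 405 and 399 bp in WT and 401 and 441 bp in KO, which overlapped.

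**Figure D2:**
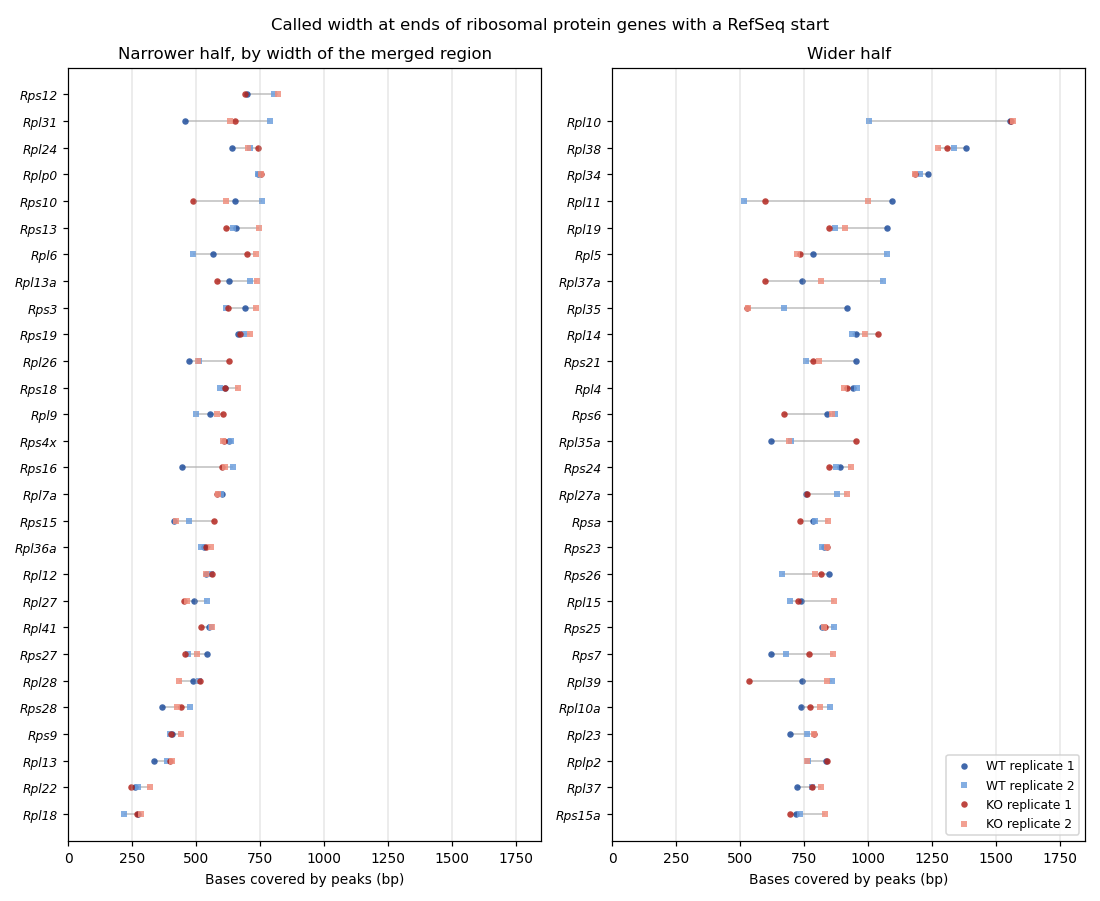
Bases covered by peaks (bp) in the main region of each of the 55 ribosomal protein genes that have both a gene-end region and a RefSeq start, with 1 point per library, ordered by the width of the merged region. The points run from 219 bp at Rpl18 to 1566 bp at Rpl10, where WT replicate 2 stands apart at 1005 bp, and the libraries are spread widely at Rpl11.

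Around the annotated start, the regions of the 56 genes reached a median of 394 bp upstream (63 to 974 bp) and 331 bp downstream (2 to 902 bp). The upstream part was the longer in 35 of 56 genes (62.5%), against 45.0% of 9030 protein-coding genes with a start in a region called in all 4, whose medians were 388.5 bp upstream and 443 bp downstream. The difference thus lay mainly in the downstream part. At Rps25, Rpl13a and Rps19 the region ended within 2, 15 and 15 bp of the start and lay almost wholly upstream. The Rps25 region was shared with an end of Trappc4, so its upstream reach cannot be assigned to either gene. Regions at such shared ends were kept in this comparison. The upstream reach was shortest at Rps4x, with 63 bp, Rpl6, with 111 bp, and Rpl13, with 139 bp.

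**Figure D3:**
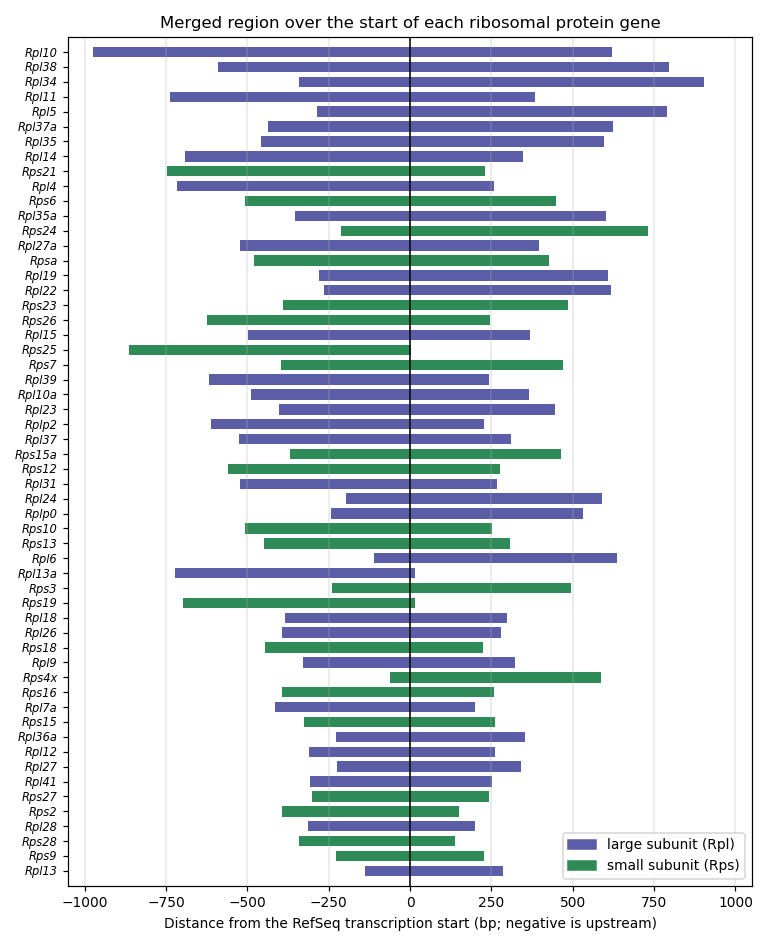
Extent of the merged region over the RefSeq start of each of 56 ribosomal protein genes, as distance from the start in bp along the direction of transcription, coloured by subunit. The regions reach a median of 394 bp upstream and 331 bp downstream, and those of Rps25, Rpl13a and Rps19 lie almost wholly upstream. The Rps25 region is shared with an end of Trappc4.

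At Rpl22, Rpl18 and Rpl19 the annotated gene span reaches well beyond the RefSeq start, so that the region over the start lay more than 1 kb from both ends. Rpl22, which binds RNA and is needed for normal T cell development in mice, had a start region of 884 bp. It covered 876 and 686 bp in WT and 874 and 848 bp in KO. The start region of Rpl18, 683 bp, covered 540 and 585 bp in WT and 465 and 664 bp in KO. That of Rpl19, 888 bp, covered 810 and 627 bp in WT and 887 and 703 bp in KO. In all 3 genes the genotypes overlapped. The main region of Rpl19 by the gene-end rule lay 3316 bp from the start, at an end shared with Cacnb1.

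The strength of a peak was read as the percentile of the authors' deposited fold within its own list, which describes rank and not amount. The main regions had a median percentile of 88.7 and 86.6 in WT and of 85.5 and 88.7 in KO, against 72.4, 73.3, 73.0 and 73.8 for the gene-end regions of other genes in the same order. The main regions of other genes, chosen by the same rule, had medians of 74.8, 75.7, 75.5 and 76.0. Related gene lists ranked about as high: the median of the mean percentile was 88.3 for the ribosomal protein genes, 87.2 for the mitochondrial ribosomal proteins, 88.1 for ribosome biogenesis and RNA polymerase I, 86.4 for the translation factors with TOP mRNAs and 91.5 for the 5 paralogs. The high rank was thus shared with these lists. Averaged over the 4 libraries, 31 genes lay above the 90th percentile and 5 below the 50th. Such counts are not given for the main regions of other genes, whose median of this mean was 75.1. The highest mean percentiles were 99.7 at Rpl27, 98.5 at Rps19, which is often mutated in human Diamond-Blackfan anaemia, 98.4 at Rps27, and 98.3 at Rps14, the gene of the human 5q- syndrome. For Rpl27 the 4 percentiles were 99.9 and 99.3 in WT and 99.9 in both KO libraries. The lowest means were 9.88 at Rpl19, 38.3 at Rpl8, 41.2 at Rpl18, 41.9 at Rps9 and 47.6 at Rpl7. The widest region, at Rpl7, was thus among the lowest in rank, and the region of Rpl27 was 564 bp wide. By the layout of the lists, the fold is an average over the whole of a broad peak.

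The regions at Rpl19 and Rpl18 by the gene-end rule were not those at their starts. The start region of Rpl19 ranked at 45.0 and 48.9 in WT and 48.2 and 72.6 in KO, above the 13.6, 13.2, 6.98 and 5.77 of its gene-end region. At Rpl18 the start region ranked at 27.6 and 30.9 in WT and 38.2 and 29.4 in KO. Rps2, outside the 74, ranked at 90.3 and 92.1 in WT and 93.4 and 91.1 in KO.

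**Figure D4:**
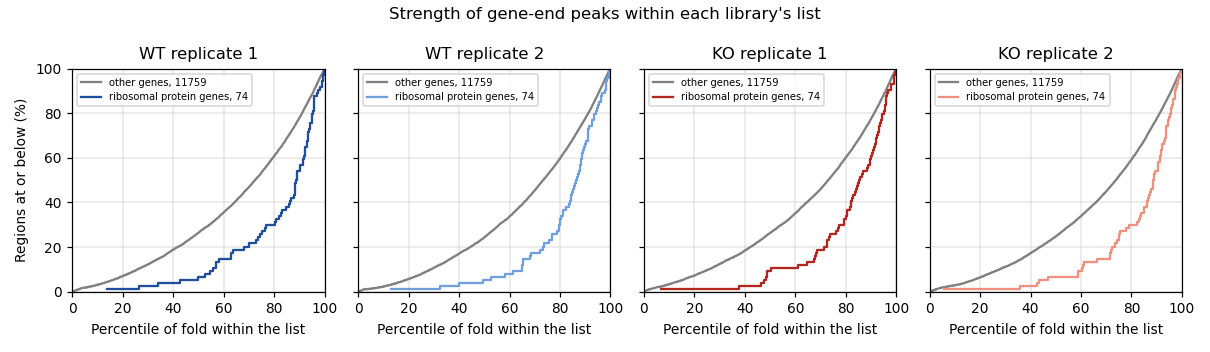
Cumulative share of regions (percent, vertical) at or below each within-list percentile of the deposited fold (horizontal), 1 panel per library, for the main regions of 74 ribosomal protein genes and 11759 gene-end regions of other genes called in all 4 libraries. The coloured line lies below and to the right of the grey line through most of each panel, with medians of 85.5 to 88.7 against 72.4 to 73.8.

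Between genotypes the typical width of these regions differed by less than the libraries of the KO group did. The median over the 74 main regions was 694 and 705 bp in WT and 674 and 736.5 bp in KO, so both WT values lay between the KO values. The means were 699.5 ± 7.78 and 705.25 ± 44.2 bp (SD, n = 2 each), a difference of 5.75 bp with an exact two-sided permutation p of 1. The smallest p that 2 against 2 libraries allow is 0.333. Without KO replicate 2 the difference was −25.5 bp, and it was 0.25 bp without WT replicate 1, 11.25 bp without WT replicate 2 and 37 bp without KO replicate 1. The gene-end regions of other genes had medians of 664 and 687 bp in WT and 662 and 706 bp in KO. In these regions, too, the KO replicate 1 value was the lowest and the KO replicate 2 value the highest.

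Gene by gene, the difference in log2 width, KO minus WT, ran from −0.57 to 0.45 over the 74 main regions, with a median of 0.03. It was positive in 42 genes (56.8%) and negative in 32, and 73 lay within 0.5 of 0. The positive share was 52.0% over the gene-end regions of other genes called in all 4 libraries. It was 46.6% over the main regions of the mitochondrial ribosomal protein genes, and no lean was tested. For comparison, the mitochondrial ribosomal protein genes had a median of −0.01 over 73 main regions. The typical size of the difference was near that between libraries of a genotype: the median absolute log2 difference was 0.129 between the WT libraries, 0.108 between the KO libraries and 0.149 over the WT and KO library pairs. The main regions of other genes, chosen by the same rule, had 0.154, 0.159 and 0.193, a description without a test. The 12 further regions of ribosomal protein genes that were called in all 4 libraries varied more than their main regions, with 0.329, 0.148 and 0.244.

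In limma's test of log2 width over the 53062 regions called in all 4 libraries, with Benjamini-Hochberg adjustment, 0 regions passed an adjusted p of 0.05 (0%), and 3179 (5.99%) had an unadjusted p under 0.05. Of the 86 regions of ribosomal protein genes, 0 passed, with adjusted p from 0.652 to 1, and 2 (2.33%) had an unadjusted p under 0.05. On simulated data of this size, with the spread shuffled between regions, the test made no call even for large changes. The count of 0 thus gives no evidence of equal width. Both KO widths lay above both WT widths in 19 of the 86 regions (22.1%), against 17% of all gene-end regions so called, and both WT widths lay above both KO widths in 15 (17.4%), against 14.9%. Neither share was far from its background.

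The 2 regions with a low unadjusted p were at Rpl6 and Rps10. The main region of Rpl6 (chromosome 5, 121204390 to 121205136), a large-subunit gene, covered 565 and 486 bp in WT and 701 and 735 bp in KO. Both KO values were above both WT values, with a log2 difference of 0.45 (SE 0.15, unadjusted p = 0.0467, adjusted p = 0.831 by limma). Rps10 encodes a small-subunit protein near the mRNA entry channel. A further region 596 bp from its end (chromosome 17, 27629322 to 27629819) covered 482 and 331 bp in WT and 168 and 174 bp in KO. Here both KO values were lower, with a log2 difference of −1.22 (SE 0.24, unadjusted p = 0.00858, adjusted p = 0.652 by limma). The main region of Rps10, over its start, covered 651 and 759 bp in WT and 487 and 617 bp in KO, again without overlap.

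Of the main regions, the most negative differences were −0.57 at Rpl35, −0.37 at Rpl8, −0.36 at Rps10 and −0.34 at Rpl37a. Rpl35, a protein at the exit of the peptide tunnel, covered 918 and 673 bp in WT and 526 and 530 bp in KO, with adjusted p = 0.863 by limma. Both KO values lay below both WT values, and without WT replicate 1 the difference was −0.35. Rpl8, which lies near the peptidyl transferase centre, covered 799 and 724 bp in WT and 478 and 723 bp in KO. The low KO mean rested on KO replicate 1, since KO replicate 2 was 1 bp below WT replicate 2, and without KO replicate 1 the difference was −0.07 and without KO replicate 2 it was −0.67. At Rps10 the difference was −0.19 without KO replicate 1 and −0.53 without KO replicate 2. Rpl37a covered 742 and 1059 bp in WT and 598 and 816 bp in KO, which overlapped. Its difference was −0.09 without WT replicate 2, −0.12 without KO replicate 1, −0.57 without KO replicate 2 and −0.60 without WT replicate 1. None of these passed the adjusted threshold.

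The most positive were 0.45 at Rpl6, 0.33 at Rplp1, 0.33 at Rps7 and 0.32 at Rpl10. Rplp1, an acidic protein of the ribosomal stalk, covered 401 and 623 bp in WT and 637 and 620 bp in KO. The value of WT replicate 1 was low and the other 3 lay close together, so the difference was 0.01 without WT replicate 1 and 0.65 without WT replicate 2. Rps7, which can also bind the p53 regulator Mdm2, covered 622 and 679 bp in WT and 770 and 865 bp in KO, without overlap. At Rpl10 the difference was 0.01 without WT replicate 2 and 0.64 without WT replicate 1. Rpl6 and Rps7 had differences of 0.35 to 0.56 and 0.24 to 0.41 with each library left out in turn. At both the genotypes did not overlap, so these differences could not turn negative.

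**Figure D5:**
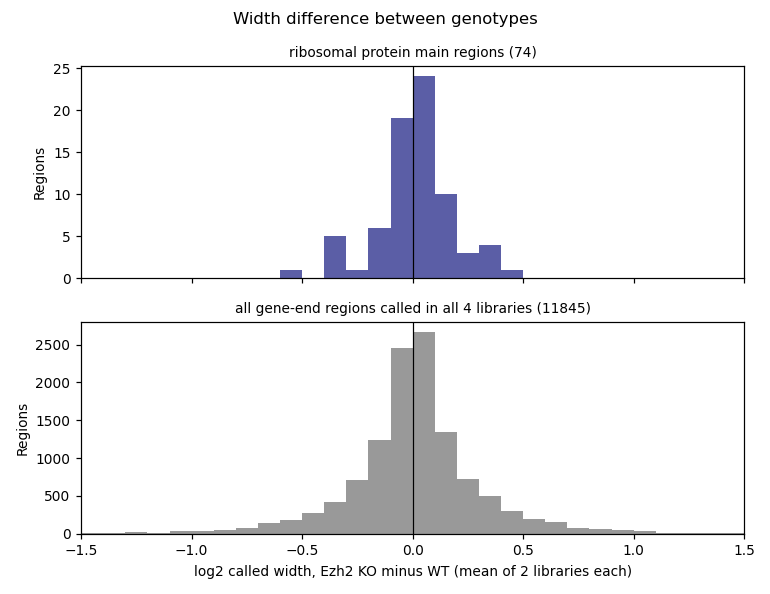
Number of regions (vertical) by difference in log2 covered width, Ezh2 KO minus WT, means of 2 libraries each (horizontal), for 74 main regions of ribosomal protein genes above and 11845 gene-end regions called in all 4 libraries below, where regions beyond 1.5 either way are not drawn. Both sets centre near 0, and the ribosomal protein genes run from −0.57 to 0.45.

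Genes picked for their known roles, after their values were seen, gave the same picture. The ribosomal stalk, which recruits elongation factors, has Rplp0 as its base and Rplp1 and Rplp2 as its acidic proteins. Rplp0 covered 741 and 744 bp in WT and 753 and 752 bp in KO, values that lay close together. Rplp2, whose region was shared with Pidd1, covered 837 and 767 bp in WT and 838 and 760 bp in KO. Rpl5 and Rpl11 form a particle with 5S RNA that can bind Mdm2 when ribosome assembly is disturbed. Rpl5 covered 786 and 1076 bp in WT and 733 and 721 bp in KO, and the WT values lay above those of KO. Rpl11 covered 1093 and 514 bp in WT and 597 and 1002 bp in KO, the least even of these genes, with 1 high and 1 low library in each genotype. Rps6, the substrate of the S6 kinases, covered 838 and 870 bp in WT and 670 and 858 bp in KO. Rpsa covered 787 and 794 bp in WT and 736 and 844 bp in KO. In both the genotypes overlapped.

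The X-linked genes, of which there were 4, gave no common direction. Rps4x covered 630 and 637 bp in WT and 611 and 605 bp in KO, and Rpl36a covered 529 and 521 bp in WT and 539 and 559 bp in KO. Neither pair of genotypes overlapped, with WT higher at Rps4x and KO higher at Rpl36a, by log2 differences of −0.06 and 0.06. Rpl39, a small protein in the wall of the peptide tunnel, covered 744 and 861 bp in WT and 533 and 840 bp in KO, which overlapped. Rpl10 was described above.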

How the data were processed

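The 4 files are broad peak lists, 1 per library. Per the submitters' processing notes, fastp, Bowtie2 and MACS2 were used and the build was mm10, without versions, and read and peak filters are not stated there. Each peak carries the authors' deposited score, a fold, which is a ratio over the local background, and −log10 p-value and −log10 q-value columns. The deposited score and −log10 values were used only to check the lists. The deposited fold was used only to rank peaks within a list.

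Peaks overlapping by at least 1 bp were merged into regions, and a library's width is the bases its peaks cover in a region. Called width can depend on depth, which is unknown. Genes, starts and promoters came from RefSeq tables of GRCm38.p6, the assembly behind mm10, and 20 of the 76 genes had no promoter entry. Shares are shown beside the same share over all features, without enrichment tests. Median widths were compared by an exact two-sided permutation test over libraries. Log2 widths of regions called in all 4 libraries were tested with limma 3.58.1 in R 4.3.3 with Benjamini-Hochberg adjustment at 0.05, and the step was tested on simulated data. The rule on named genes took the exceptions to the calls, the 5 widest and 5 narrowest main regions, the 4 largest and 4 smallest width differences, the 4 highest and 4 lowest ranks and the X-linked genes. Some genes are counted in the totals but not reported here by name. The genes, lists and tests were chosen with earlier results of these data known. The comparison with the main regions of other genes was added after the values were seen, and leaves out regions shared with ribosomal protein genes.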

Additional observations from a re-analysis of the deposited data

How the results depend on the processing

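The count of ribosomal protein genes called in all 4 libraries stayed between 69 and 78 under every alternative that used gene ends, where 78 includes the added ribosome components. The share over all protein-coding genes, 54.6%, is given for the main setting only. The contrast with other genes was thus not tested under the alternatives. The width test made 0 calls in all 17 settings run, with 1 to 5 regions of these genes at an unadjusted p under 0.05. Among these was the replicate block, with 0 calls. The labels do not tie same-numbered libraries together, and their deviations from the group means had a correlation of 0.0105 over 53062 regions. Regions called only in KO numbered 2 with gene ends within 2 kb (126 bp at Rpl24 and 138 bp at Rpl12). A rule that peaks cover 50% of a region gave 1 WT-only region, the further region at Rps10. Leaving out each library in turn gave 0 to 2 KO-only regions (2 without KO replicate 2, of which 1 was at Rps27a). It gave 0 to 1 WT-only regions, at Rpl13 without WT replicate 1, Rps29 without WT replicate 2 and Rpl23 without KO replicate 2. The shares over all gene-end regions, 0.735% for KO only and 0.804% for WT only, belong to the main setting. The counts under these alternatives therefore have no background beside them and do not set these genes apart. The difference in median width, 5.75 bp, reversed to −25.5 bp without KO replicate 2, fell to 0.25 bp without WT replicate 1 and reached 37 bp without KO replicate 1. With all 4 libraries kept it was 3.25 to 17.75 bp, and the cause was not tested. Leaving out a library turned the sign of none of the 8 named width differences but took 4 of them, at Rpl8, Rpl37a, Rplp1 and Rpl10, to within 0.1 of 0. The 8 were chosen as the extremes of this difference in the same libraries. At Rpl35, Rpl8, Rps10, Rpl6, Rps7 and Rpl10 the genotypes did not overlap, so leaving out 1 library could not turn the sign. The kept signs thus do not show stability. Counting regions at RefSeq starts in place of gene ends, chosen after seeing the data, gave 56 genes and 11.5 bp. Depth is unknown, so a missing call does not show closed chromatin.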
